A study of Mus musculus with 6 samples.

Results

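DNA replication genes were examined in N2A cells, a mouse neuroblastoma line used to study neuronal differentiation, after knockdown of the class III POU transcription factor gene Pou3f3. The set was a list of 59 genes of replication origins, forks and nucleotide supply, chosen by name. All 59 had a row with a single gene symbol among 21789 such rows of the array, and the row with the highest mean was used for each gene. Knockdown cells carried, by transient transfection, a U6-driven vector expressing a short hairpin RNA (shRNA) against Pou3f3, and control cells carried a non-targeting vector. Cells received 1.5 µg of vector, and RNA was taken 2.5 days later. There were 3 arrays of each condition, described as biological replicates of this single cell line. Values are on the log2 scale of the array, and a difference is the knockdown mean minus the control mean. A row was called when its limma adjusted p was under 0.1 and its fold at least 1.3.

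Eukaryotic cells copy their DNA from many origins. In G1 the origin recognition complex, with Cdc6 and Cdt1, loads the Mcm2 to Mcm7 helicase, a step termed licensing. In S phase the kinase Cdc7 with Dbf4 activates this helicase, Cdc45 and the GINS complex join it, and primase, the polymerases, the sliding clamp and its loader copy the DNA while nucleotides and new histones are supplied. Many of these genes are transcribed at the start of S phase under E2F transcription factors, so that their transcripts are more abundant in dividing cells.

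Pou3f3 itself had values of 8.20, 8.09 and 8.35 in knockdown replicates 1 to 3, against 8.37, 8.30 and 8.47 in control replicates 1 to 3. The groups overlapped, pairs of equal number differed by -0.17, -0.21 and -0.12, and the overall difference was -0.16 (limma adjusted p = 0.303). For its Pou3f3 knockdown the study reported, by quantitative RT-PCR, a larger reduction of the transcript than this array difference. That is another assay, given for a somewhat later time. The medians of the 6 arrays over all rows lay between 7.90 (knockdown replicate 2) and 8.01 (control replicate 1). Over rows with 1 gene symbol they lay between 8.58 (control replicate 1) and 8.62 (control replicate 3). Among 14 measured markers of neuroblastoma and sympathoadrenal cells, 13 lay above the median row. Their summed linear level was 65593 to 66639 in knockdown arrays and 74626 to 76231 in control arrays. Of the 14, 6 lay above 0, and 1 (Dbh) was called lower, where 0.684% of all rows were. Gata3, Chga and Chgb differed by -0.33, -0.35 and -0.38, short of the fold required (limma adjusted p = 0.0484, 0.0628 and 0.0456). Every knockdown array lay below every control array for 5 of the 14, where this held for 15.1% of all rows. Of 33 measured markers of fibroblasts, glia, blood, endothelium, epithelium and muscle, 27 lay below the median row. The sum of these 33 was 7040 to 7634 in knockdown arrays and 7529 to 7793 in control arrays. Of the 33, 3 had a difference above 0 (median -0.10), where 42.5% of all rows did. Every knockdown array lay below every control array for 8 of the 33, and above for 2. Over all rows this held for 15.1% and 10.9%. The muscle gene Des, 1 of the 3 above 0, was called higher, where 1.3% of all rows were. The part of such cells in the results below was not tested.

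Most replication genes lay higher in knockdown cells, by a small amount. Of the 59 genes, 55 had a difference above 0, where 42.5% of all rows did, and the median difference was 0.22, against -0.03 over all rows. Most members lay at levels where a larger share of rows was above 0, as given below. Only 3 genes were called higher, where 284 of the 21789 rows (1.3%) were, and none was called lower, where 0.684% of all rows were. These were Cdca7, Rfc3 and Prim1. At an unadjusted p under 0.05, 20 members were higher, where 9.66% of all rows were, and 0 lower, where 10.2% of all rows were. Every knockdown array lay above every control array for 19 of the 59 genes (32.2%), where this held for 10.9% of all rows, and for no member did every knockdown array lie below, where this held for 15.1% of all rows. None of the 3 was called when knockdown replicate 2, control replicate 2 or control replicate 3 was left out. Rfc3 and Prim1 were also lost without knockdown replicate 1, Rfc3 without knockdown replicate 3 and Cdca7 without control replicate 1, with adjusted p-values of 0.0238 to 0.260 for the 3 genes on leaving out 1 array (limma). With all 35556 rows of the array tested, named or not, or with a variance filter applied to them, 0 members were called. These settings called only 0.0281% and 0.0112% of their rows higher, so that the 0 is no result about the members. The filter is a reading of the study's methods. The study reported far more changed genes than this setting called, so its own selection was not reproduced here. The main fit also called fewer rows than the study reported genes. In bulk RNA, a larger share of cells in S phase and more of these transcripts per cell cannot be told apart.

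**Figure D1:**
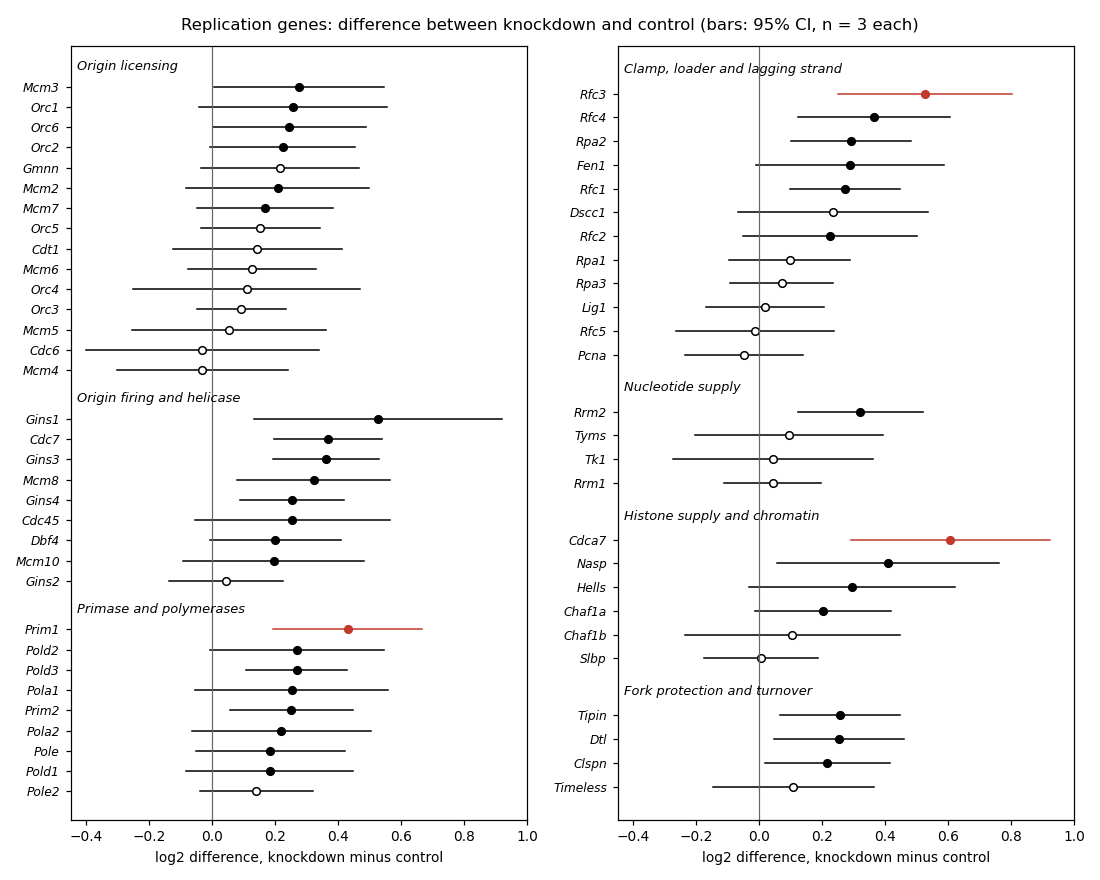
Log2 difference between knockdown and control (horizontal axis) of the 59 replication genes, grouped by role and ordered by difference; points are differences of means (n = 3 arrays each) and bars are 95% confidence intervals from limma. Red marks the 3 called genes, and filled points mark the 36 genes with an adjusted p under 0.1 once the replicate number was taken as a block; 55 of the 59 points lie to the right of 0.

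Deviations from the group means correlated at 0.64 between the arrays numbered 1, whereas numbers 2 and 3 were hardly told apart. The arrays numbered 2 correlated at 0.31 and those numbered 3 at 0.29, against 0.22 and 0.25 when crossed. The labels name no shared batch, so the pairing is an assumption taken from the data. With that limit, each knockdown array was also set against the control array of its number. In this comparison 46 of the 59 genes were higher in all 3 pairs, where 23.8% of all rows were, and 1 gene, Pcna, was lower in all 3. With the replicate number as a block in limma, 36 of the 59 genes passed an adjusted p under 0.1 with a positive difference, where 12.3% of all rows did. None passed with a negative one, where 2329 of the 21789 rows did. This count with the block and no fold requirement was chosen after seeing the data. Without the block 6 genes passed with a positive difference, where 2.66% of all rows did. The fold requirement then left 5 called genes with the block, where 1.74% of all rows were called higher. These were Cdca7, Rfc3, Prim1, Gins1 and Nasp.

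**Figure D2:**
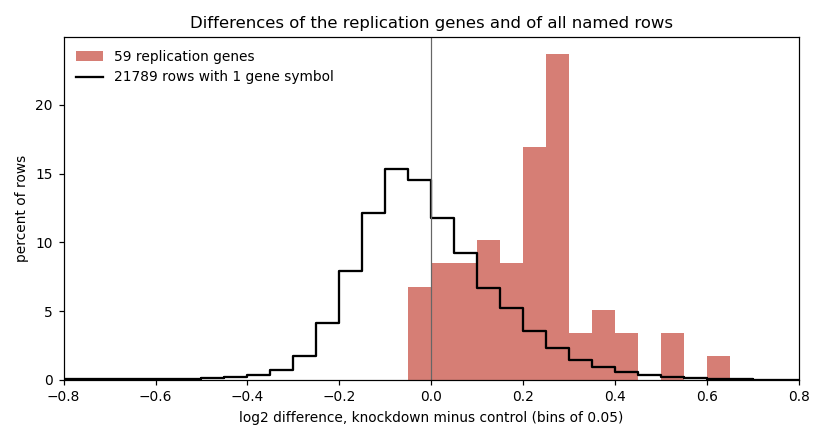
Distribution of log2 differences (knockdown minus control, horizontal axis, bins of 0.05) of the 59 replication genes (red bars) and of all 21789 rows with a single gene symbol (black outline), each in percent of its rows. The replication genes lie to the right, with a median of 0.22 against -0.03, and reach from -0.05 to 0.61.

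The pair numbered 2 had the largest difference for 50 of the 59 genes. The median difference of the members was 0.13 in pair 1, 0.34 in pair 2 and 0.16 in pair 3, and 47, 58 and 55 of the 59 genes lay above 0 in pairs 1, 2 and 3. Knockdown replicate 2 was the highest of the 3 knockdown arrays for 52 genes. The median level of the members was 10.98, 11.20 and 10.92 in knockdown replicates 1 to 3, against 10.92, 10.89 and 10.82 in control replicates 1 to 3. Without knockdown replicate 2 the median difference was 0.12 and 47 of the 59 genes lay above 0. With both arrays numbered 2 left out, 50 genes lay above 0, the median was 0.16, and 0 members were called, in a setting that called 0.00918% of all rows higher. With the block, 2 members (Gins1 and Cdca7) and 1.12% of all rows were called higher.

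**Figure D3:**
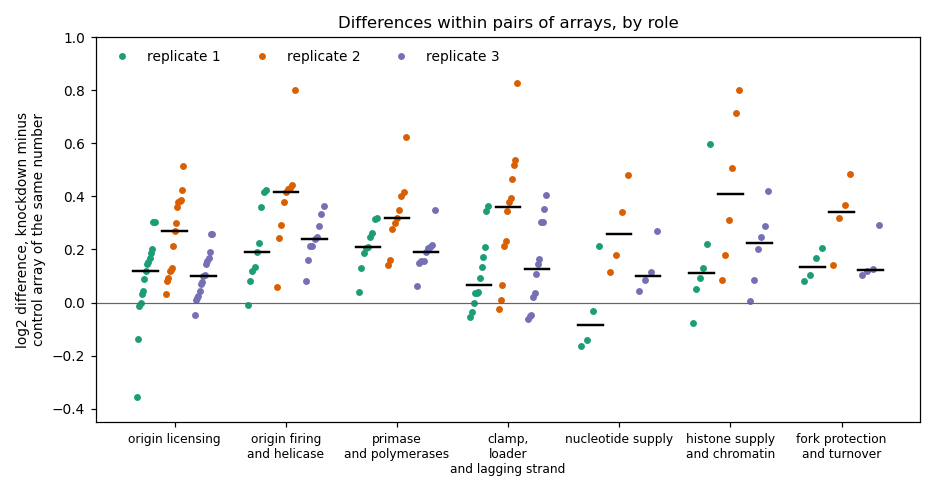
Log2 difference between each knockdown array and the control array of the same number (vertical axis) for the replication genes of each role; points are genes, colours are replicate numbers and black bars are medians. Pair 2 has the highest median in all 7 roles, and pair 1 of the nucleotide supply genes has a median below 0 (-0.09).

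The members stood mostly among rows of high level, where rows in general also differed slightly upwards. When all rows were split into 10 classes by mean level, 46 members fell into the 4 classes that span 8.60 to 11.82. The median difference of all rows in these 4 classes was 0.04, 0.07, 0.06 and 0.04 from low to high, and that of the members was 0.20, 0.25, 0.22 and 0.20. In the same order, 57.4%, 64.3%, 65.2% and 61.5% of all rows lay above 0. Of the members, 3 of 4, 8 of 8, 14 of 15 and 19 of 19 did. In the highest class, the 9 members had a median of 0.09 and all rows one of 0.01. The 4 members in lower classes (Gmnn, Dscc1, Orc1 and Clspn) lay above 0, where class medians were -0.09 and -0.08.

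**Figure D4:**
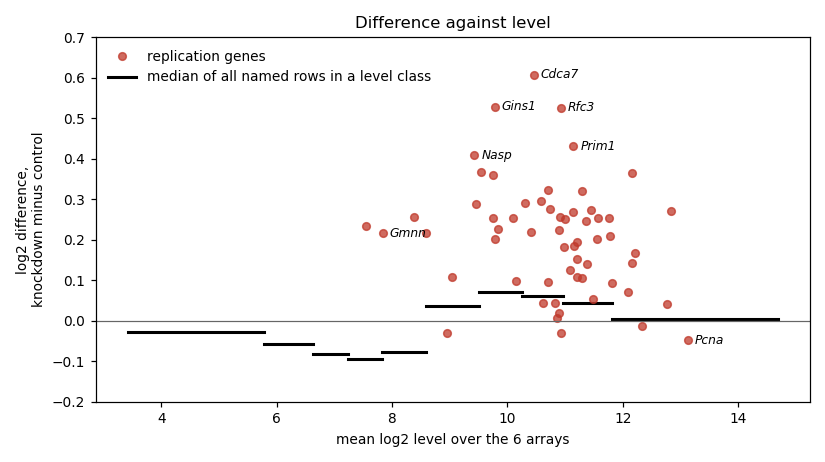
Log2 difference between knockdown and control (vertical axis) against mean log2 level over the 6 arrays (horizontal axis); red points are the replication genes, and black bars give the median difference of all named rows in each of 10 level classes. The members' medians of 0.20 to 0.25 in the classes from 8.60 to 11.82 stand above bars at 0.04 to 0.07, and Pcna, the rightmost red point, lies below 0.

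To see what the members share in sequence, RefSeq promoters (GRCm38.p6, 250 bases before to 50 after a transcript start) were searched. A promoter was found for 49 of the 59 genes, as 58 windows. An E2F word (TTTCCCGC, TTTGGCGC or TTTCGCGC, on either strand, overlapping matches counted) stood in 20 of the 58 windows (34.5%), against 1.84% of all 32851 windows and 2.41% of the windows of protein-coding genes. The CCAAT word stood in 53.4% of the members' windows and 37.4% of all windows. The 20 genes with an E2F word had a median difference of 0.23, and the 29 genes with a promoter and no such word one of 0.20. The words are a description of the letters in these windows.

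Promoters of the 3 called genes, and of Mcm5 and Cdc6 as genes with an E2F word and a difference near 0, are given 5′ to 3′ on the strand of the gene, with E2F words in capitals. Cdca7 lies at chr2:72475969-72476268 (plus strand), Rfc3 at chr5:151651159-151651458 (minus), Prim1 at chr10:128014965-128015264 (plus), Mcm5 at chr8:75109259-75109558 (plus) and Cdc6 at chr11:98907901-98908200 (plus).
Cdca7: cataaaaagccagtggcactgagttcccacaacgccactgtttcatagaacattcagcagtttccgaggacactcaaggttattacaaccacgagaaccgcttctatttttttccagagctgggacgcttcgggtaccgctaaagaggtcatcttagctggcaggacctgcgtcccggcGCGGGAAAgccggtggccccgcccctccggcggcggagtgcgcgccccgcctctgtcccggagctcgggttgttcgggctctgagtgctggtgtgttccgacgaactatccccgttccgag
Rfc3: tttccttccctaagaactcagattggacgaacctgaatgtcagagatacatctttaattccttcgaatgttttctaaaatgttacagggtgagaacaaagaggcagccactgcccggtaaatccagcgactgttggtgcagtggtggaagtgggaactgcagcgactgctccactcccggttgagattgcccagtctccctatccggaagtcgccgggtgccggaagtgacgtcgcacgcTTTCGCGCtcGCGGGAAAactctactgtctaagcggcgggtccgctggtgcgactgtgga
Prim1: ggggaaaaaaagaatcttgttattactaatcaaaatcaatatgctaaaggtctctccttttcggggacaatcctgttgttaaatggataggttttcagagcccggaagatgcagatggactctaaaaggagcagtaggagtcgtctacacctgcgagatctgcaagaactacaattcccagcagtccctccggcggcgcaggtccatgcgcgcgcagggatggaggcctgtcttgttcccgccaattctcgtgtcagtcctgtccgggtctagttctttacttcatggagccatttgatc
Mcm5: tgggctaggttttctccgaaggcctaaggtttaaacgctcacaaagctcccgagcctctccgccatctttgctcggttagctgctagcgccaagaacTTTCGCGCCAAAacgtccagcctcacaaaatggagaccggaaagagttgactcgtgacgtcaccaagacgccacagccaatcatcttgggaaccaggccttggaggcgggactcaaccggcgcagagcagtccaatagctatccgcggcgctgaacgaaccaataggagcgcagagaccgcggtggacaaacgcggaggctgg
Cdc6: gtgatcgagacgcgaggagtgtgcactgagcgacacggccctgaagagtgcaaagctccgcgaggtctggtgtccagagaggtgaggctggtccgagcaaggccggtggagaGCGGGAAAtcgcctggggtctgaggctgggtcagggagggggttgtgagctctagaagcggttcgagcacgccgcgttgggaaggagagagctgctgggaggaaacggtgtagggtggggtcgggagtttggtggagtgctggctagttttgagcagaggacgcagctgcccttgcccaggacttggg

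Counted from the first transcribed base as 1, the word of Cdca7 begins at -71 and reads GCGGGAAA, the reverse complement of TTTCCCGC. Rfc3 holds a pair of words, at -10 and 1. In Mcm5 the words that begin at -153 and -149 share their middle bases. The word of Cdc6 begins at -138. Prim1 has none of the 3 words in this window.

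Among histone supply and chromatin genes, Cdca7, a zinc finger protein that stimulates the nucleosome remodeller Hells, showed the largest difference of all members. Its values were 10.63, 11.12 and 10.56 in knockdown replicates 1 to 3, against 10.03, 10.31 and 10.13 in control replicates 1 to 3. The groups did not overlap. Cdca7 rose by 0.61 ± 0.14 (SE, limma adjusted p = 0.0704), a fold of 1.52. Hells itself had 10.84, 10.90 and 10.46 in knockdown cells, against 10.71, 10.39 and 10.21 in control cells, with overlapping groups. Its difference of 0.29 (95% confidence interval -0.03 to 0.62) was not called (limma adjusted p = 0.293, or 0.0347 with the block). Nasp, a chaperone of histones H3 and H4, had 9.79, 9.75 and 9.36 in knockdown cells, against 9.57, 9.03 and 9.07 in control cells. It was called with the block (limma adjusted p = 0.0198) and not without it (0.200), at a difference of 0.41. The chromatin assembly factor genes Chaf1a and Chaf1b differed by 0.20 and 0.11. Slbp, which binds the stem-loop of histone mRNAs, had 10.86, 10.98 and 10.76 in knockdown cells, against 10.94, 10.89 and 10.75 in control cells. Its groups overlapped, and the difference was 0.01, or -0.03 after cyclic loess. Its other row gave 0.08.

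**Figure D5:**
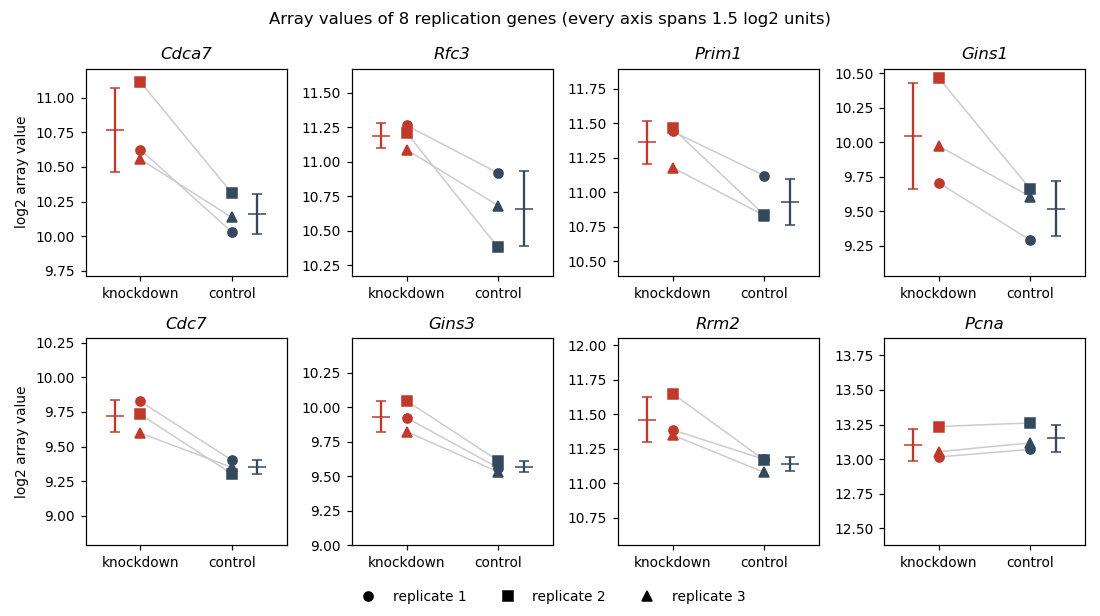
Log2 array values (vertical axes) of 8 replication genes in knockdown and control cells; symbols are replicate numbers, grey lines join arrays of the same number, and horizontal marks with bars are means ± SD (n = 3). The 8 genes were picked for display and do not stand for the whole set. The groups are apart for 7 genes and overlap for Pcna, whose difference is -0.05. Every knockdown array lay above every control array for 19 of the 59 genes (32.2%) and 10.9% of all rows.

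In the clamp loader, which opens the Pcna ring and places it on DNA, 4 of the 5 subunit genes lay above 0. Rfc3 had 11.26, 11.21 and 11.09 in knockdown cells, against 10.92, 10.38 and 10.68 in control cells, and the groups did not overlap. It rose by 0.53 ± 0.12 (SE, limma adjusted p = 0.0713), with the largest step in pair 2 (0.83, against 0.34 and 0.41 in pairs 1 and 3). Rfc4 differed by 0.37 and Rfc1 by 0.27 with groups that did not overlap, and neither was called (limma adjusted p = 0.126 and 0.118). Rfc2 differed by 0.23 (limma adjusted p = 0.329). Rfc5 had 12.14, 12.49 and 12.35 in knockdown cells, against 12.15, 12.48 and 12.39 in control cells, and the difference of -0.01 had a 95% confidence interval of -0.26 to 0.24. Dscc1, part of an alternative clamp loader, differed by 0.23.

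The clamp gene Pcna had 13.02, 13.24 and 13.05 in knockdown cells, against 13.07, 13.26 and 13.12 in control cells. It was the lowest of the 59 differences, -0.05 (95% confidence interval -0.24 to 0.14), and the other Pcna row gave -0.04. Rows of one symbol can hold signal from near-identical copies elsewhere in the genome, which was not tested. Of the lagging strand genes, the flap endonuclease gene Fen1 differed by 0.29 (limma adjusted p = 0.267, or 0.0359 with the block). Lig1, the ligase that joins Okazaki fragments, differed by 0.02, and was at -0.01 after cyclic loess. In RPA, which coats single-stranded DNA, Rpa2 differed by 0.29 with groups that did not overlap (limma adjusted p = 0.124, or 0.0198 with the block). Rpa1 and Rpa3 differed by 0.10 and 0.07 (limma adjusted p = 0.328 and 0.480 with the block).

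All 9 primase and polymerase genes lay above 0, and each was higher in all 3 pairs, where 23.8% of all rows were. Prim1, the catalytic subunit of primase, had 11.44, 11.46 and 11.18 in knockdown cells, against 11.12, 10.84 and 10.83 in control cells. The groups did not overlap, and Prim1 rose by 0.43 ± 0.10 (SE, limma adjusted p = 0.0786). After cyclic loess the difference was 0.40 and the adjusted p 0.104. Its partner Prim2 differed by 0.25, also with groups that did not overlap (limma adjusted p = 0.169, or 0.0428 with the block). The polymerase alpha genes Pola1 and Pola2 differed by 0.25 and 0.22. Pold3, an accessory subunit of the lagging strand polymerase delta, had 11.29, 11.35 and 11.15 in knockdown cells, against 10.96 to 11.02 in the 3 control arrays, so that the groups did not overlap. Its limma adjusted p was 0.0998 at a difference of 0.27, below the fold required. Pold2 and Pold1 of the same enzyme differed by 0.27 and 0.18, and Pole and Pole2 of the leading strand polymerase epsilon by 0.18 and 0.14. With the block, 8 of the 9 genes passed an adjusted p under 0.1, where 12.3% of all rows did with a positive difference. The exception was Pole2 (0.198). Pole2 had 11.41, 11.61 and 11.35 in knockdown cells, against 11.37, 11.29 and 11.29 in control cells, and its groups overlapped.

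All 9 genes grouped under origin firing and helicase, which include the recombination helicase gene Mcm8, lay above 0, with a median of 0.25. Gins1, a subunit of the GINS complex that completes the active helicase, had 9.71, 10.46 and 9.97 in knockdown cells, against 9.29, 9.66 and 9.61 in control cells. Its groups did not overlap, and knockdown replicate 2 was the highest of the 6 arrays. The difference of 0.53 was not called without the block (limma adjusted p = 0.155) and was called with it (0.0060). Gins3 had 9.92, 10.05 and 9.82 in knockdown cells, against 9.56, 9.61 and 9.53 in control cells, with groups that did not overlap. At 0.36 ± 0.07 (SE, limma adjusted p = 0.0511) it did not reach the fold required. Gins4 differed by 0.25, and its groups did not overlap. Gins2 had 10.58, 10.76 and 10.59 in knockdown cells, against 10.59, 10.70 and 10.50 in control cells, with a difference of 0.04 (95% confidence interval -0.14 to 0.22). The 4 subunit genes therefore ran from 0.04 to 0.53.

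The kinase gene Cdc7, which starts firing, had 9.83, 9.73 and 9.60 in knockdown cells, against 9.40, 9.30 and 9.35 in control cells. Its groups did not overlap, and the difference of 0.37 ± 0.08 (SE, limma adjusted p = 0.0511) also did not reach the fold required. The regulatory subunit gene Dbf4 differed by 0.20, Cdc45 by 0.25 and Mcm10 by 0.19, each with overlapping groups. Mcm8, a helicase of recombination rather than of origins, differed by 0.32 (limma adjusted p = 0.159, or 0.0150 with the block). With the block, 8 of the 9 genes of this role passed an adjusted p under 0.1, all but Gins2. Of all rows, 12.3% passed in this way with a positive difference.

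The 15 licensing genes had a median of 0.15, with 13 of them above 0 and none called. Of all rows, 42.5% lay above 0, 1.3% were called higher and 0.684% lower. The helicase subunits ran from Mcm3 at 0.28 through Mcm2 (0.21), Mcm7 (0.17), Mcm6 (0.13) and Mcm5 (0.05) to Mcm4 at -0.03. Mcm3 had 10.70, 11.15 and 10.80 in knockdown cells, against 10.51, 10.76 and 10.54 in control cells. Its groups overlapped, since control replicate 2 stood above knockdown replicate 1 (limma adjusted p = 0.243, or 0.0223 with the block). Mcm4 had 10.79, 11.20 and 10.78 in knockdown cells, against 10.93, 11.10 and 10.82 in control cells, with a 95% confidence interval of -0.30 to 0.24. Mcm2 had 11.66, 12.14 and 11.84 in knockdown cells, against 11.49, 11.84 and 11.68 in control cells. Mcm7 had 12.14, 12.46 and 12.31 in knockdown cells, against 12.02, 12.24 and 12.14 in control cells. The groups of both overlapped, although each knockdown array stood above the control array of its number. Mcm6 had 11.15, 11.26 and 11.04 in knockdown cells, against 11.16, 10.88 and 11.03 in control cells, so that the pairs differed by -0.01, 0.38 and 0.01. Mcm5 had 11.27, 11.77 and 11.50 in knockdown cells, against 11.27, 11.69 and 11.42 in control cells. With the block, Mcm2, Mcm3 and Mcm7 passed an adjusted p under 0.1 and Mcm4, Mcm5 and Mcm6 did not (0.767, 0.556 and 0.310). Of all rows, 12.3% passed in this way with a positive difference.

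The 6 subunit genes of the origin recognition complex were higher in all 3 pairs, where 23.8% of all rows were. They ran from Orc1 (0.26), Orc6 (0.25) and Orc2 (0.22) to Orc5 (0.15), Orc4 (0.11) and Orc3 (0.09). With the block, Orc1, Orc6 and Orc2 passed an adjusted p under 0.1, and Orc5, Orc4 and Orc3 did not. Of all rows, 12.3% passed in this way with a positive difference. Orc1, the subunit whose level is known to vary over the cell cycle, had 8.37, 8.83 and 8.32 in knockdown cells, against 8.22, 8.41 and 8.13 in control cells, with overlapping groups (limma adjusted p = 0.311, or 0.0389 with the block). Orc4 was higher in replicate 1 of both groups (11.54 in the knockdown array and 11.50 in the control array) than in the other arrays (10.92 to 11.19). Cdc6, a loader of the helicase, had 8.65, 9.29 and 8.86 in knockdown cells, against 8.71 to 9.18 in the 3 control arrays. It differed by -0.03 with pairs at -0.35, 0.12 and 0.14, so that pair 1 went against the others. Cdt1, its partner in loading, had 12.06, 12.39 and 12.25 in knockdown cells, against 11.85, 12.27 and 12.15 in control cells. It differed by 0.14 with overlapping groups (limma adjusted p = 0.515, or 0.128 with the block). Gmnn, which binds and inhibits Cdt1, had 7.82, 8.24 and 7.79 in knockdown cells, against 7.74, 7.72 and 7.75 in control cells. The groups did not overlap for Gmnn, but the difference of 0.22 came mostly from knockdown replicate 2 and was not called (limma adjusted p = 0.308, or 0.129 with the block).

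Of the 4 nucleotide supply genes, Rrm2 passed an adjusted p under 0.1 with the block and the others did not. Of all rows, 12.3% passed in this setting with a positive difference. Rrm2, the S phase subunit of ribonucleotide reductase, had 11.39, 11.65 and 11.35 in knockdown cells, against 11.17, 11.17 and 11.08 in control cells. Its groups did not overlap, with a difference of 0.32 ± 0.09 (SE, limma adjusted p = 0.107, or 0.0172 with the block). Rrm1, the other subunit of this enzyme, had 12.73, 12.88 and 12.75 in knockdown cells, against 12.76, 12.77 and 12.71 in control cells, a difference of 0.04 (95% confidence interval -0.11 to 0.20). The thymidylate synthase gene Tyms and the thymidine kinase gene Tk1 differed by 0.09 and 0.04, and both were lower in pair 1 (-0.14 and -0.17). The other Tk1 row gave 0.02.

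Genes of fork protection and turnover lay above 0 in all 4 cases and in all 3 pairs. Of all rows, 23.8% were higher in all 3 pairs. Tipin, which stabilises forks together with Timeless, had 10.92 to 11.21 in the 3 knockdown arrays, against 10.83, 10.73 and 10.81 in control cells. Its groups did not overlap, and the difference was 0.26 (limma adjusted p = 0.154, or 0.0547 with the block). Timeless had 8.90, 9.29 and 9.09 in knockdown cells, against 8.82, 9.15 and 8.99 in control cells, and differed by 0.11 with overlapping groups. Clspn, the adaptor through which stalled forks activate the kinase Chek1, had 8.65, 8.87 and 8.57 in knockdown cells, against 8.45, 8.55 and 8.44 in control cells, and differed by 0.22. Dtl, the receptor of the ubiquitin ligase that removes Cdt1 during S phase, had 11.72, 11.80 and 11.60 in knockdown cells, against 11.61, 11.43 and 11.30 in control cells. Its difference was 0.25 (limma adjusted p = 0.184, or 0.0376 with the block).

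Further genes of replication outside the 59 were read from lists of initiation, fork, nucleotide, histone chaperone and checkpoint genes. Of 80 measured, 66 had a positive difference, the median was 0.16, 2 were called higher and none lower. Over all rows, 42.5% had a positive difference, 1.3% were called higher and 0.684% lower, and the median was -0.03. These shares stand beside each list below. Those called were the checkpoint kinase gene Chek1, which rose by 0.44 ± 0.09 (SE, limma adjusted p = 0.0469), and Fbxo5, an inhibitor of the anaphase-promoting complex, which rose by 0.43 ± 0.10 (limma adjusted p = 0.0776). Rad9a, a subunit of the checkpoint clamp, had the largest difference of the 80, 0.44, and was called with the block alone (limma adjusted p = 0.177, or 0.0034 with the block). The initiation list had 11 of 11 genes above 0 and a median of 0.21, with Ticrr, a firing factor, at 0.24. The nucleotide synthesis list had a median of 0.06 over 20 genes, and the CTP synthase gene Ctps stood at 0.32 (limma adjusted p = 0.0627). The fork list had 15 of 22 genes above 0 and a median of 0.15, and reached down to -0.13. Its largest difference was that of the topoisomerase gene Top2a, 0.32 (limma adjusted p = 0.146). In the list of chromatin and histone chaperones, Casp8ap2, which acts in histone gene transcription, had the largest difference (0.27) over 13 genes with a median of 0.15. Among 25 regulators of entry into S phase, 16 had a positive difference (median 0.09), and Tfdp2, which pairs with E2F proteins, rose by 0.40 ± 0.09 (SE, limma adjusted p = 0.0688). E2f6, a repressor of the E2F family, differed by 0.52 (limma adjusted p = 0.172, or 0.0019 with the block). The lowest of the 25 was the cyclin gene Ccnd3, with 10.51, 10.70 and 10.65 in knockdown cells, against 10.78, 11.01 and 11.15 in control cells. Its groups did not overlap, and its difference of -0.36 was not called (limma adjusted p = 0.112, or 0.0092 with the block, below the fold required).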

How the data were processed

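RNA of 6 transfected N2A cultures was measured on Affymetrix Mouse Gene arrays. The deposited values are log2 expression, which the authors made by RMA background correction, quantile normalisation and summary of the probes of a transcript cluster. The submitters' processing notes name RMA and limma, and their versions are not given in the sources used here. Quantile normalisation hides a change shared by most transcripts, and precision is limited by the number of arrays. Of 35556 rows, 21789 had 1 gene symbol in the platform table, 1621 several and 12146 were not listed. The rows with 1 symbol were fitted in R 4.3.3 with limma 3.58.1 (lmFit and eBayes, no covariate), and p-values were adjusted over all 21789 by the Benjamini-Hochberg procedure. The thresholds follow the study's methods, whose variance filter, as read here, was run as an alternative. The fit was run on simulated data with independent arrays and rows, so this check does not cover deviations shared by arrays of the same number. Deviations of arrays of the same number from their group means correlated at 0.64, 0.31 and 0.29 (numbers 1 to 3), so the numbers were taken as pairs from the data, and the labels name no shared batch. Unmatched arrays correlated at 0.22 (knockdown 2 with control 3), 0.25 (knockdown 3 with control 2) and below 0 otherwise, so that numbers 2 and 3 are hardly told apart. Arrays are transfections of 1 line, and p-values measure only the spread between them. Members, lists and the main test were chosen with earlier results of these data known. All 59 members are accounted for, with full values for called genes, the highest and lowest difference of each role, and Pcna, Mcm2 to Mcm7, Gmnn, Cdt1, Rrm2 and Dtl as textbook genes; other genes are named where called or of the largest difference in their list, and further genes and values were added after they were seen. Promoter positions are GRCm38.p6, and no coordinates of the arrays are given. The lists of other cell types were used as a check of the labelled cells.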

Additional observations from a re-analysis of the deposited data

How the results depend on the processing

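No member was called lower in any of the 20 alternatives, and the median difference stayed between 0.12 and 0.25 on leaving out 1 array and at 0.19 after cyclic loess. Of the 59 genes, 47 to 58 lay above 0 on leaving out 1 array. The share of all rows called higher stands in brackets after each count, since settings that call few rows leave few members to be called. The count of 3 called members (1.3%) was 5 with pairing, a replicate block (1.74%), 5 with a variance filter on rows with 1 symbol (3.47%, 52 members tested), 2 after cyclic loess (1.19%), and 6 without the fold requirement (2.66%). It was 0 at an adjusted p under 0.05 (0.794%), 0 with the variance filter on all rows, the study's filter as read here (0.0112%, 50 members tested), 0 with all 35556 rows tested (0.0281%), and 0 to 5 on leaving out 1 array (0.307% to 1.80%). It was 0 without both arrays numbered 2 (0.00918%), an alternative chosen after seeing the data, and 36 with the block and no fold requirement (12.3%), also chosen after seeing the data. In this last setting Pou3f3, at -0.16, passed as well (limma adjusted p = 0.0880). Cdca7, Rfc3 and Prim1 had differences of 0.43 to 0.71, 0.39 to 0.65 and 0.38 to 0.53 on leaving out 1 array. Differences that changed sign belonged to genes that were not called. After cyclic loess, Lig1 was at -0.0132 and Slbp at -0.0261. Without both arrays numbered 2, Mcm6 was at -0.0017, Lig1 at -0.0050, Tyms at -0.0280, Tk1 at -0.0248 and Slbp at -0.0346. On leaving out 1 array or both numbered 2, the ranges were -0.0289 to 0.28 for Orc4, -0.21 to 0.11 for Cdc6, -0.17 to 0.0443 for Mcm4, -0.0750 to 0.17 for Mcm5, -0.0017 to 0.20 for Mcm6, -0.0150 to 0.0959 for Gins2, -0.11 to 0.0081 for Pcna, -0.11 to 0.0779 for Rfc5, -0.0492 to 0.0626 for Lig1, -0.0054 to 0.0713 for Rrm1, -0.0718 to 0.19 for Tyms, -0.0938 to 0.21 for Tk1, -0.0306 to 0.26 for Chaf1b and -0.0488 to 0.0584 for Slbp. The cause of these changes was not tested.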
